A study of Mus musculus with 4 samples.

Results

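The genes of the G protein alpha subunits examined here were Gnai2, Gnai3, Gna11, Gna12, Gna13, Gna15 and Gnaq, 7 of the 21896 protein-coding genes in the RefSeq annotation of the mouse. They were read through the peaks that overlap each gene or lie within 1000 bp of it. Gnai2 and Gna13 were chosen by their H3K4me3 peaks, which differed in calling or in width between the genotypes, so those values are given as a description and support nothing. At these genes lay 23 of 31398 H3K4me3 peaks of the wild-type library and 19 of 28505 of the knockout library. Of the H3K9me3 peaks, 5 of 19279 (wild type) and 10 of 17369 (knockout) lay there.

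The study mapped 2 histone modifications by chromatin immunoprecipitation with sequencing (ChIP-seq) in peritoneal macrophages that thioglycollate broth had drawn into the cavity of 8-week-old C57BL/6 mice and that were then kept in dishes. Both marks were mapped in macrophages of wild-type (WT) mice and of mice whose genotype is given as Sun-/- (Sun knockout, KO). There was 1 library for each mark and genotype, 4 in all, and the labels name neither the SUN gene removed nor the number of mice behind a library. No difference between genotypes therefore has a replicate check, no p-value was computed, and each interval is a 95% interval of counting error alone.

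Heterotrimeric G proteins carry signals from seven-helix receptors into the cell, and the alpha subunit, which binds GTP, decides which effector is reached. Alpha subunits of the Gi class (Gnai2, Gnai3) lower cyclic AMP and serve chemoattractant receptors of macrophages. Those of the Gq class (Gnaq, Gna11, and Gna15 in blood cells) turn on phospholipase C beta, and those of the G12 class (Gna12, Gna13) act through guanine nucleotide exchange factors on RhoA and the actin cytoskeleton. H3K4me3 sits around the starts of active genes, and H3K9me3 is known from silenced chromatin.

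The promoters of Gna13 and Gna15 are shown because the H3K4me3 peak at each start reached farther upstream in KO. At Gna15 the stretch shown lay inside the peak in both genotypes. The promoter of Gnaq is shown because H3K4me3 and H3K9me3 peaks were called together just after its start. Each line gives the 250 bases before the gene start from RefSeq (GRCm38.p6, the assembly of mm10), read 5′ to 3′ on the gene's strand, with every CG dinucleotide in capitals. They lie at chr11:109362544-109362793 (plus strand, Gna13), chr10:81524226-81524475 (minus strand, Gna15) and chr19:16132434-16132683 (plus strand, Gnaq). The start in the RefSeq promoter entry of Gna15 lies 222 bp inside the upper end of the annotated gene, so most of its stretch is within the gene; for the other 5 genes with an entry, start and gene end coincide.
Gna13: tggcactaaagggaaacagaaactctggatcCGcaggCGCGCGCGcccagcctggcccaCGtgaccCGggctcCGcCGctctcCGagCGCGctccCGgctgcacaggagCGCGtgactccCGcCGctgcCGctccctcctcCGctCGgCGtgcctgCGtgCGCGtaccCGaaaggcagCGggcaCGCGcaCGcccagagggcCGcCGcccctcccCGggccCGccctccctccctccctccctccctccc
Gna15: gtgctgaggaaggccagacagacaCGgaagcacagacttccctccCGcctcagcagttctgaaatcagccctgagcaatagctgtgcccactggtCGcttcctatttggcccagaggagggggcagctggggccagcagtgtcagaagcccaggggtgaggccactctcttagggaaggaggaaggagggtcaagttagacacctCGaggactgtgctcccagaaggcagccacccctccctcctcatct
Gnaq: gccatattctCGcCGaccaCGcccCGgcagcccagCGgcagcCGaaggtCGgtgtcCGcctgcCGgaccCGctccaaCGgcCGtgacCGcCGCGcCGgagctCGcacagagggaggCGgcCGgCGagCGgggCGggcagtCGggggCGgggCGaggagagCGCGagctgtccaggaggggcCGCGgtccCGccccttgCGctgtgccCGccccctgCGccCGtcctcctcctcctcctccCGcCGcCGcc

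The stretches before Gna13 and Gnaq held 33 and 37 CG dinucleotides, and that before Gna15 held 4. A RefSeq promoter entry, 300 bases with 50 of them after the start, was matched for 6 of the 7 genes, namely Gnai3, Gna11, Gna12, Gna13, Gna15 and Gnaq. Over the 300 bases Gna11 had 48 CG dinucleotides, Gna13 had 40, Gnaq 39, Gna12 30 and Gnai3 21, and Gna15 had 6. The median of 32544 promoter sequences, noncoding genes included, was 7, so 5 of these genes had CG-rich starts and Gna15 did not. The GC box (GGGCGG on either strand) occurred 7 times at Gna12, 5 times at Gnaq, 3 times at Gna13 and 2 times at Gna11, and 0 times at Gnai3 and Gna15, with overlapping matches counted. Of all promoters 35.9% held it. The ETS motif CCGGAAG, on either strand, occurred 2 times at Gnai3, against 8.91% of all promoters with it, and 0 times at the other 5. The E box CACGTG, whose letters are the same on both strands, occurred once each at Gnai3 and Gna13, against 7.17% of all promoters. The CCAAT box (CCAAT, either strand) occurred 2 times at Gna12 and 1 time at Gna11, against 37.4% of all promoters with it, and the TATA box (TATAAA, either strand) at 0 of the 6 genes, against 13.6%. These matches describe the letters in the window and do not show binding.

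The libraries held 29681491 and 26748289 filtered tags for H3K4me3 (WT, KO) and 27727997 and 28586946 for H3K9me3. The cells carried H3K4me3 at 10 of 10 macrophage markers in both genotypes, Csf1r, Cd68 and Spi1 among them. Markers of other cells that were marked in both were 2 of 6 for T and NK cells (Cd4, Lck), 2 of 4 for B cells (Cd79a, Pax5), 2 of 5 for eosinophils and mast cells (Kit, Siglecf), 3 of 6 for mesothelium and fibroblasts (Col1a1, Pdgfra, Wt1) and 0 of 5 for neutrophils. Any peak in the gene or within 1000 bp counted, so a peak at the start of a neighbour could mark a gene. The edges of the Cd79a peak match those of the start-site peak of Arhgef1 in both genotypes. Upk3b and Krt19 of mesothelium and Mpo of neutrophils were marked in WT alone, and S100a8 of neutrophils in KO alone. Their part in the values below was not tested.

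H3K4me3 was called at the start of 6 of the 7 genes in both genotypes, and at the upper end of Gnai2 in KO alone. Counting any peak in the gene or within 1000 bp, the numbers were also 6 in both and 1 in KO alone. By this wider measure, 67.3% of all protein-coding genes were marked in both, 2.93% in WT alone and 1.43% in KO alone. The rule that picked Gnai2 used this contrast, so nothing is read from the count.

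**Figure D1:**
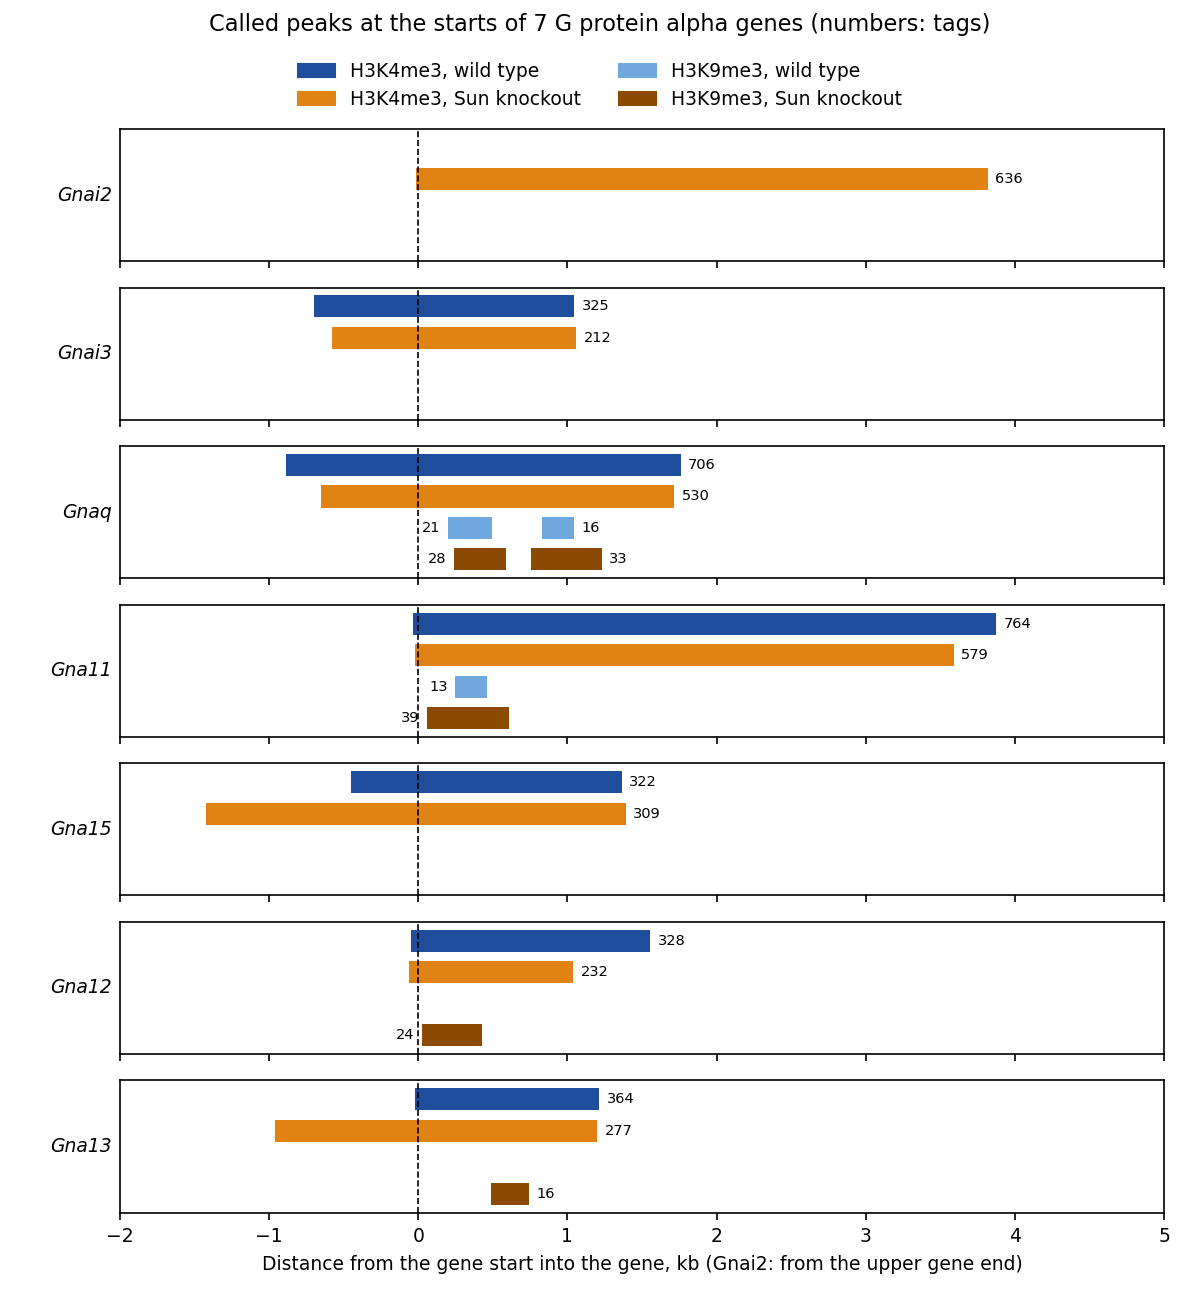
Peaks called at the gene starts, drawn by distance in kb from the gene start (dashed line) into the gene, 1 panel for each gene and 1 row for each library, with the tags of each peak beside it. For Gnai2 the distance is from the upper end of the gene. The KO H3K4me3 bars of Gna13 and Gna15 reach 962 and 1424 bp upstream, against 21 and 449 bp in WT, and Gnai2 has a bar in KO alone.

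Of the Gi class, Gnai2 (chromosome 9, 107614125 to 107635391) had no H3K4me3 peak in the WT list. In KO a peak of 3836 bp from 107631574 to 107635409 held 636 tags, with a score of 528 (-10 times the log10 of the caller's p-value) and a fold enrichment of 4.78, both the authors' values. It covered the upper end of the gene. The nearest WT peak was 5331 bp away, at 107640740 to 107641789, with 67 tags, and it overlapped a KO peak. Just outside the 1000 bp limit, on the other side of the gene, a peak of 168 tags in WT and one of 129 tags in KO lay 1152 and 1334 bp from the gene. The caller writes no value where it calls no peak, so no fold difference is given for Gnai2.

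The Gnai2 peak ranked at number 7 by tags among 5638 KO peaks without a WT partner. Of the 694 KO peaks with at least 500 tags, 14 lacked a partner (2.02%), against 19.8% of KO peaks of any size. The 3 peaks without a partner nearest to it in tags and width were those at Brd2 and H2-DMa (625 tags, 3823 bp), at Csk (628 tags, 4312 bp) and at Pip5k1c (611 tags, 4474 bp). Csk encodes a kinase that restrains Src family kinases. Their scores were 111, 350 and 170, below that of Gnai2, and their fold enrichments were 3.26, 6.47 and 3.81, of which that at Csk exceeded that of Gnai2.

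Gnai3 (chromosome 3, 108107275 to 108146152) had its start covered in both libraries. The peak held 325 tags over 1744 bp in WT and 212 tags over 1640 bp in KO, and its edges differed by 117 bp upstream and 13 bp downstream. To compare such peaks, tags per kb were set as a log2 ratio of KO over WT and centred on the median of 17114 one-to-one pairs. The median pair itself lay at -0.19 when scaled to filtered tags and at -0.09 when scaled to library totals. Gnai3 was at -0.19 (interval -0.44 to 0.07), which includes the median pair. The WT list also held a peak of 28 tags inside the gene that the KO list lacked, and 28.1% of all WT H3K4me3 peaks had no KO partner.

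Of the Gq class, Gnaq (chromosome 19, 16132684 to 16388520) held 706 tags over 2648 bp at its start in WT and 530 tags over 2369 bp in KO. Its centred log2 density ratio was 0.09 (-0.08 to 0.25), and it was -0.10 scaled to filtered tags. Gna11 (chromosome 10, 81528724 to 81545162) had the widest start-site peak of the 6 genes, with 764 tags over 3915 bp and 579 tags over 3617 bp. This width exceeded 95.8% of 10105 WT peaks that cover a gene start, and 95.8% of 9380 in KO. The Gna11 ratio was 0.05 (-0.10 to 0.21), and -0.14 scaled to filtered tags. For both genes the centred interval included the median pair, and the sign depended on the scaling.

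Gna15 lies next to Gna11 on chromosome 10 (81502313 to 81524447). Its start-site peak held 322 tags over 1814 bp in WT and 309 tags over 2816 bp in KO. The centred density ratio was -0.35 (-0.58 to -0.12). Tags per peak gave the opposite sign, 0.42, because the KO peak was wider and held 0.960 times the unscaled tags, against 0.718 times in the median pair. The KO peak ended 3075 bp from Gna11, outside its window.

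Of the G12 class, Gna12 (chromosome 5, 140759944 to 140830431) held 328 tags over 1602 bp in WT and 232 tags over 1106 bp in KO. Its centred ratio was 0.37 (0.13 to 0.62), above 92.8% of pairs, and with tags per peak it was -0.02. Gna13 (chromosome 11, 109362794 to 109401369) held 364 tags over 1236 bp and 277 tags over 2162 bp. Its centred ratio was -0.86 (-1.09 to -0.63), with 0.0234% of pairs lower, and with tags per peak it was 0.08. In WT its density exceeded that of 98.8% of start-site peaks, and in KO that of 58.0%. The density values of Gna12, Gna13 and Gna15 thus moved with the called width, while their tags changed by a ratio near or above that of the median pair.

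By the size rule of at least 2-fold in centred density, 0 of the 6 paired genes were called. Over all pairs 0.0409% were denser and 0.0117% less dense in KO by that rule. Scaled to filtered tags, Gna13 passed 2-fold at -1.05, as did 0.0643% of pairs in that direction. A KO peak at least 1.5-fold wider was found in 2.26% of pairs, and Gna13 (1.75-fold) and Gna15 (1.55-fold) were among them. Gna13 was picked for a peak that differed in calling or width, so nothing is read from its rank in width, density or edge shift.

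**Figure D2:**
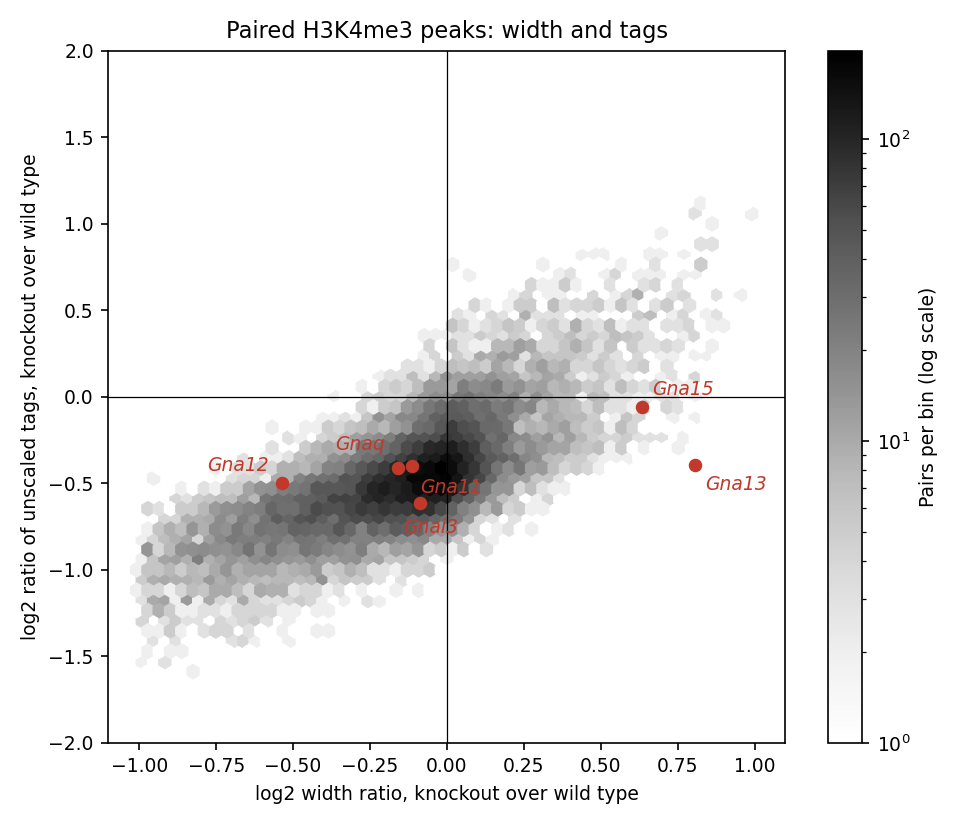
All 17114 paired H3K4me3 peaks, by log2 width ratio (horizontal) and log2 ratio of unscaled tags (vertical), KO over WT; grey shows pairs per bin on a log scale and red points are the start-site peaks of 6 genes. Gna13 and Gna15 lie at the wide end, 1.75 and 1.55-fold wider, with tag ratios of 0.761 and 0.960.

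The added width at Gna13 and Gna15 lay on the upstream side. At Gna13 the peak began 21 bp upstream of the start in WT and 962 bp upstream in KO, while its downstream edge was at 1214 and 1199 bp. At Gna15 the upstream edge was at 449 and 1424 bp and the downstream edge at 1364 and 1391 bp. From the upper end of the Gna15 gene in place of its internal start, the upstream edge was at 227 and 1202 bp, and the shift is the same. The KO edge was thus 941 and 975 bp farther out, and the downstream edges differed by 15 and 27 bp. Of 9191 protein-coding genes with a start under a peak in both genotypes, 2.37% had the upstream edge at least 500 bp farther out in KO and 7.81% at least 500 bp nearer, with a median shift of -26 bp. At limits of 250 and 750 bp, 3.95% and 1.27% had it farther out. The 500 bp limit was set after these values were seen. The other 4 genes shifted by -234 bp (Gnaq), -117 bp (Gnai3), -13 bp (Gna11) and 18 bp (Gna12).

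Of the Gna13 promoter entry of 300 bases, whose first 250 are printed above, 71 lay inside the WT peak and 300 inside the KO peak. Of the Gna15 entry, 300 bases lay inside the peak in both genotypes, so its added KO width lay beyond the printed stretch. Gna11 and Gna12 had peaks that began close to the start in both genotypes. Their upstream edges were at 38 and 47 bp in WT and at 25 and 65 bp in KO, so that 88 and 97 of the 300 bases lay in the WT peak. An upstream edge under 100 bp was found in 13.2% of genes in WT and in 17.2% in KO. The summit of the Gna13 peak hardly moved, at 480 bp after the start in WT and 474 bp in KO, and that of Gna15 was at 86 and 90 bp.

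**Figure D3:**
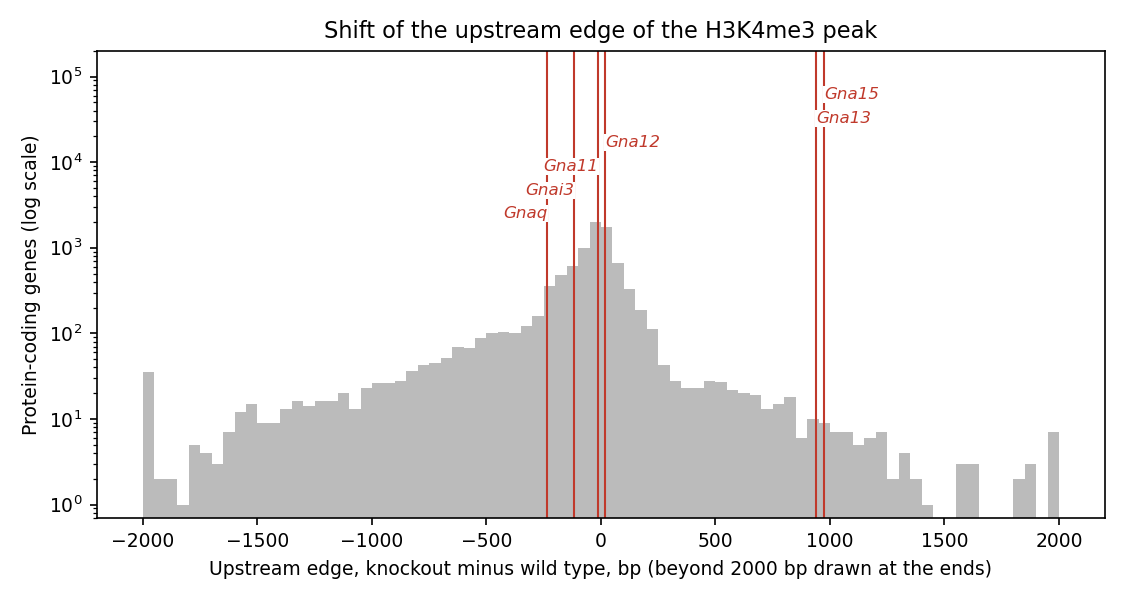
Shift of the upstream edge of the H3K4me3 peak at the gene start, KO minus WT in bp, for 9191 protein-coding genes (log count axis), with red lines for 6 G protein alpha genes. Gna13 and Gna15 sit at 941 and 975 bp, and the other 4 lie between -234 and 18 bp.

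Among the WT peaks most like that of Gna13 in tags, tag ratio and width ratio was that at Arpc2, which encodes a subunit of the actin-nucleating Arp2/3 complex, with 363 tags over 1140 bp and 296 tags over 1829 bp in KO. A peak shared by Neu1 and Slc44a4 had 360 tags over 1186 bp and 307 over 1900 bp. In both the centred density ratio was below 0, at -0.64 and -0.57. These peaks were chosen for likeness over 2 libraries. Tag ratio and width ratio together set the density ratio, so its sign followed from the choice and shows nothing.

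Scaled per kb and per 1000000 filtered tags, the order of the start-site levels differed between the libraries. In WT Gna13 was highest at 9.92 (8.93 to 11.0), followed by Gnaq at 8.98 (8.33 to 9.67). Below them lay Gna12 at 6.90 (6.17 to 7.69), Gna11 at 6.57 (6.12 to 7.06), Gnai3 at 6.28 (5.61 to 7.0) and Gna15 at 5.98 (5.34 to 6.67). Neighbours in this order overlapped in their intervals, except Gnaq and Gna12. In KO Gnaq was highest at 8.36 (7.67 to 9.11) and Gna12 next at 7.84 (6.87 to 8.92), with overlapping intervals. Gnai2 followed at 6.20 (5.73 to 6.70), Gna11 at 5.98 (5.51 to 6.49), Gnai3 at 4.83 (4.20 to 5.53), Gna13 at 4.79 (4.24 to 5.39) and Gna15 at 4.10 (3.66 to 4.59). Here neighbours overlapped except Gna12 and Gnai2. Gna13 went from the first place in WT to the sixth of 7 in KO, over peaks of unequal width. Gnai2 has a place in the KO order alone, so the orders hold unlike sets of genes. Gna13 was picked for this peak, and nothing is read from its change of place.

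**Figure D4:**
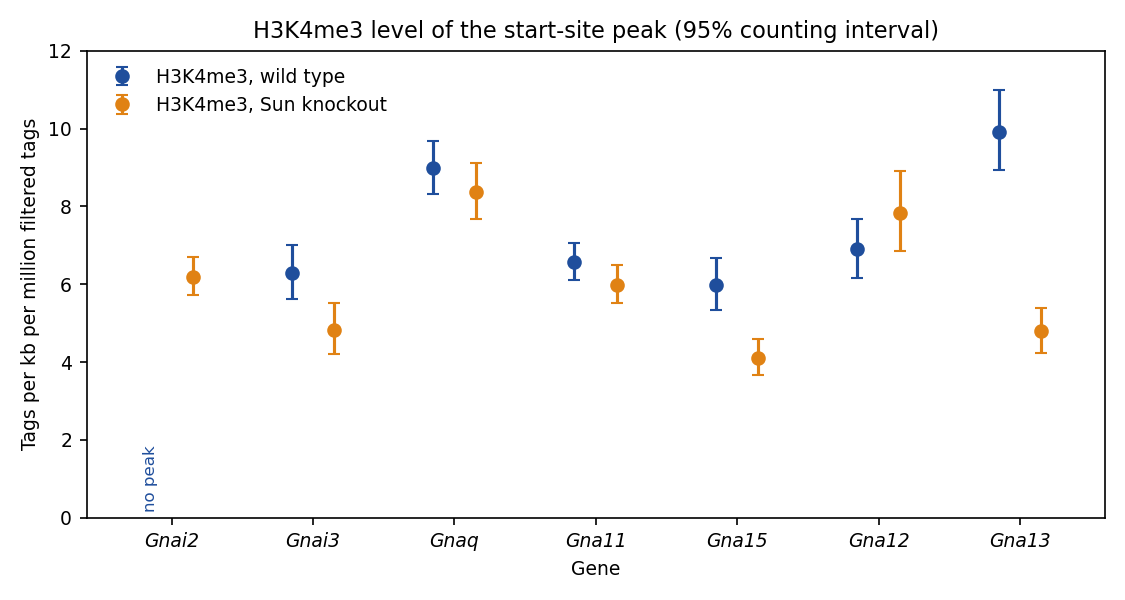
H3K4me3 level of the start-site peak (Gnai2: the peak at the upper gene end) in tags per kb per 1000000 filtered tags, by gene, with blue for WT and orange for Sun knockout; bars are 95% intervals of counting error. Gna13 stands at 9.92 and 4.79, and for Gnai2 WT has no peak.

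Weaker H3K4me3 peaks lay inside 4 of the genes. At Gna12 the WT list held 8 peaks with 855 tags over 8943 bp in all, and the KO list 4 peaks with 366 tags over 3456 bp. Of these, 3 in each list were shared between the genotypes. The 4 WT peaks nearest the far end of the gene, from 140763343 to 140773601, held 76, 77, 90 and 128 tags and had no KO partner. Over the whole lists, 28.1% of WT and 19.8% of KO H3K4me3 peaks had no partner in the other genotype. Their scores were 57.4, 51.5, 70.2 and 56.1, close to the lowest score in the list, 50. The summed Gna12 tags, scaled to filtered tags, gave a log2 ratio of -1.07, and the mean density was 95.6 tags per kb in WT and 106 in KO. A sum at least 2-fold lower in KO was found for 4.64% of 14727 genes, and one at least 2-fold higher for 0.713%. The median gene was at -0.37 on this scale, and centred on it Gna12 was at -0.71, under 2-fold, with 1.55% of genes at least 2-fold lower. With peaks of a score of at least 100 the Gna12 ratio was -0.35.

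At Gna13 the WT list had 1 peak inside the gene, with 123 tags over 1665 bp at 109376206 to 109377870. The KO list had 3, with 50, 44 and 23 tags, of which that at 109377110 to 109377824 overlapped the WT peak. Summed over the gene, 487 tags in 2 peaks stood against 394 tags in 4 peaks. At Gnaq 9 WT peaks held 1133 tags over 9690 bp and 7 KO peaks held 763 tags over 6304 bp, and 5 in each list were shared. The peak near the far end of Gnaq held 154 tags over 2418 bp in WT and 46 tags over 636 bp in KO. For Gna11 and Gna15 the start-site peak was the sole H3K4me3 peak in either genotype.

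**Figure D5:**
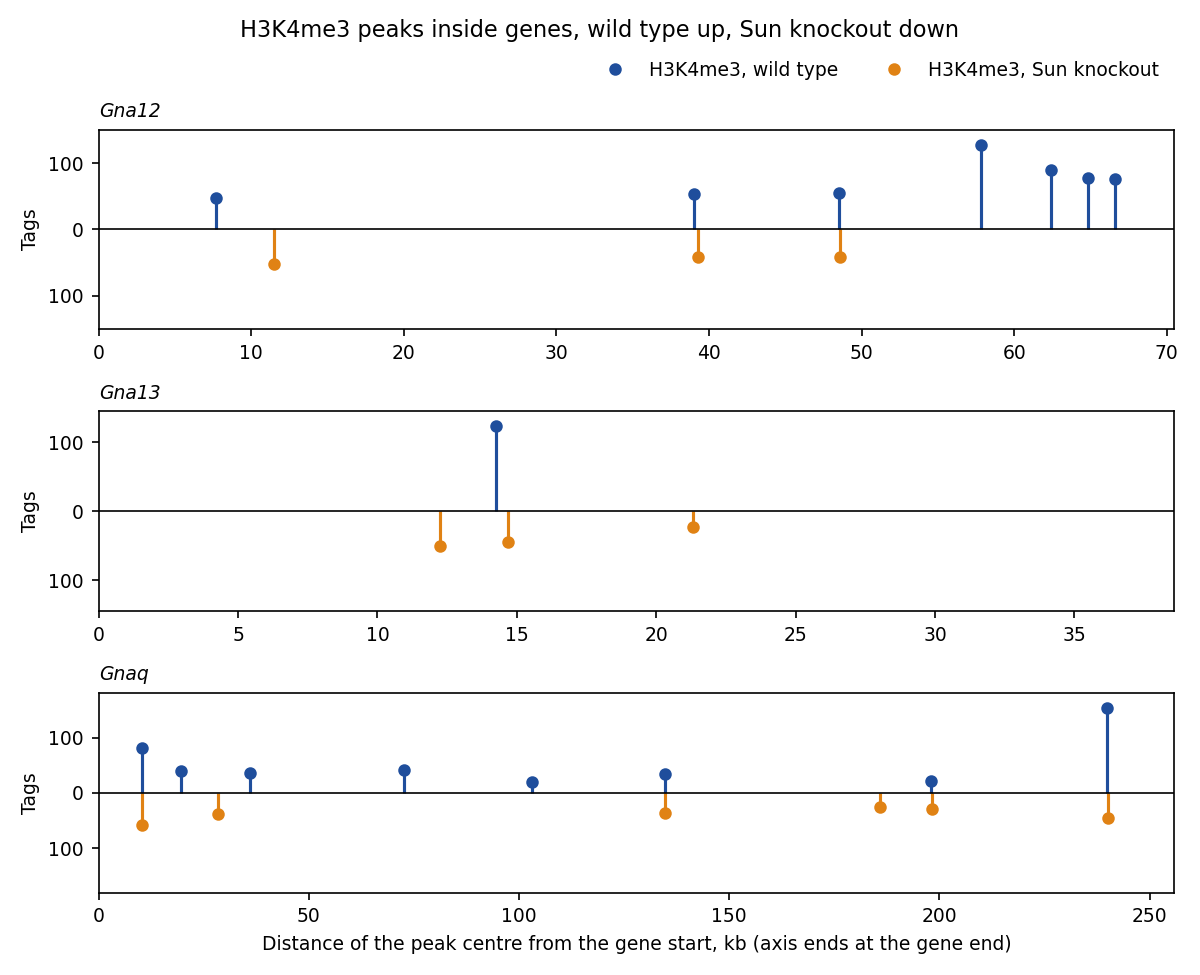
H3K4me3 peaks inside Gna12, Gna13 and Gnaq, away from the start, by distance of the peak centre from the gene start in kb (the axis ends at the gene end) and tags per peak, with WT drawn upward in blue and Sun knockout downward in orange. At Gna12 the 4 WT peaks of 76 to 128 tags near the far end have no KO counterpart, like 28.1% of all WT H3K4me3 peaks.

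By tags, most H3K9me3 peaks at these genes were at or above the median of that mark's lists, while some scores were close to the caller's limit. They held 13 to 36 tags in WT and 15 to 39 in KO, against medians of 16 and 17 over all H3K9me3 peaks, and 4 of 5 and 7 of 10 were at or above the median. Their scores ran from 50.2 to 98.4 in WT and from 50.6 to 112 in KO, against medians of 62.1 and 63.1. Peaks below the median included those of Gna15 (50.2) and Gna11 (51.3) in WT and of Gna13 (50.6) in KO. Gnaq, Gna11 and Gna15 had such a peak in both genotypes, Gna12 and Gna13 in KO alone, and Gnai2 and Gnai3 in neither. With a score of at least 100 the peaks of Gna12, Gna13 and Gna15 drop out, and Gna11 and Gnaq have one in KO alone. Among protein-coding genes 16.9% were marked in both, 8.73% in WT alone and 11.2% in KO alone. The rule did not use H3K9me3 values, but with 1 library for each genotype no test was possible.

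Most of these peaks lay under H3K4me3. At Gnaq, 2 peaks of 21 and 16 tags in WT and 2 of 28 and 33 tags in KO began 201 and 830 bp, and 239 and 754 bp, after the start. At Gna11 a peak of 13 tags over 217 bp in WT overlapped one of 39 tags over 549 bp in KO. In KO alone, Gna12 had a peak of 24 tags from 22 to 426 bp after its start, and Gna13 one of 16 tags from 487 to 742 bp. So 2 of the 6 genes with a matched start had an H3K9me3 peak within 1000 bp downstream of it in WT, and 4 of 6 in KO. Of all starts under an H3K4me3 peak, 15.4% (WT) and 20.5% (KO) had one. Of starts under H3K4me3 in both genotypes, 10.6% had one in KO alone and 6.38% in WT alone, against 2 and 0 of these 6 genes.

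In all, 3 of 5 WT and 7 of 10 KO H3K9me3 peaks at these genes overlapped an H3K4me3 peak of the same genotype. Over all H3K9me3 peaks in or near protein-coding genes the shares were 39.7% and 50.8%. The caller took fragments of 66 and 71 bp for the H3K9me3 libraries, little above the 50 bp of a tag, and the part of that setting in these peaks was not tested. Away from H3K4me3, Gna15 carried a peak of 36 tags in each genotype, at 81514177 to 81514720 in WT and 81514181 to 81514690 in KO. Gna12 and Gnaq each had a peak inside the gene in KO alone that was not under H3K4me3, with 21 and 16 tags, and Gna15 had one of 18 tags in WT alone.

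The other genes of the pathway were taken as whole lists by function, and their counts stand against the 67.3% of all protein-coding genes marked in both genotypes, 2.93% in WT alone and 1.43% in KO alone. For each gene the strongest WT peak in the gene or within 1000 bp was used where it paired. It did not have to cover the gene's own start, so counts and medians of the lists can include start-site peaks of neighbouring genes. The median centred density ratio over 12836 such genes was -0.03, with 44.6% above 0. The 6 paired genes described above had a median of -0.07 with 3 above 0. With tags per peak this median was 0.07, and it was 0.09 over the 3 genes that pair at 80% reciprocal overlap, so its sign depends on the choice. Of 9 other alpha subunit genes, 8 had H3K4me3 in both genotypes, and Gnat3, of taste cells, had a peak of 27 tags in WT alone. Gnas, which encodes the subunit that stimulates adenylyl cyclase, held 1049 and 832 tags, at 0.08 (-0.05 to 0.21). The peak used for Gnat2, the cone transducin gene, held 561 and 450 tags, that of Gna14 324 and 225, and that of Gnao1 297 and 209. The edges of the Gnat2 peak match those of the start-site peak of Ampd2 in both genotypes. It is therefore not read as a mark of the Gnat2 start. The 8 pairs, that used for Gnat2 included, had a median of -0.13 with 2 above 0.

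Of the beta subunit genes 5 of 5, and of the gamma subunit genes 11 of 12, had H3K4me3 in both genotypes. Gnb2 held 1014 tags in WT and 791 in KO, at -0.16 (-0.30 to -0.02), and Gnb1 held 729 and 498 tags. Gng5 (613 and 440 tags), Gng12 (524 and 382), Gngt2 (431 and 380) and Gng10 (360 and 245) led the gamma subunits. Gngt2 was at -0.29 (-0.49 to -0.09), in a peak of 3040 bp in WT and 4152 bp in KO. The medians were -0.11 over 4 beta and -0.10 over 11 gamma pairs. With tags per peak Gnb2 and Gngt2 had the opposite sign, 0.12 and 0.30. Among the paired genes of the alpha, beta and gamma lists, 0 were 2-fold denser or less dense.

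Among 26 genes that regulate alpha subunits, the RGS proteins that speed GTP hydrolysis, the Ric8 chaperones and the Gpsm proteins, 21 were marked in both genotypes. Rgs18 had a peak of 19 tags in WT alone. Rgs10 held 558 and 358 tags, at 0.23 (0.03 to 0.42), in a peak of 2972 bp in WT and 2064 bp in KO, and with tags per peak it was at -0.16. Rgs19 held 714 and 533 tags, at -0.04 (-0.21 to 0.12). Gpsm3 and Ric8a, with 1685 and 883 tags in their strongest WT peaks, had no one-to-one partner. Of the 21 effector genes all 21 were marked in both, against 67.3% of all genes. For Plcb3 and Plcb2, phospholipase C genes downstream of the Gq class, the peaks used were at -0.02 (-0.18 to 0.14) and 0.14 (-0.03 to 0.32). The edges of the Plcb2 peak match those of the start-site peak of Ankrd63 in both genotypes. Its value is therefore not read as one of the Plcb2 start. Arhgef12, an exchange factor for RhoA downstream of the G12 class, was at -0.19 (-0.38 to 0.01), and Adcy9, an adenylyl cyclase gene, at -0.32 (-0.51 to -0.13). The medians were 0.01 over 15 regulator and -0.0025 over 19 effector pairs, and 0 of these pairs were past 2-fold. With tags per peak the medians were -0.16 and 0.01, and for the gamma and receptor lists they were 0.09 and 0.08, so the sign of the gamma, regulator, effector and receptor medians depends on the measure.

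Of 35 receptor genes, 27 had H3K4me3 in both genotypes, 4 in WT alone and 1 in KO alone, against 67.3%, 2.93% and 1.43% of all genes. Among those marked in WT alone were Gpr65, a proton-sensing receptor gene, with 176 tags, Lpar6 with 154 and P2ry13 with 42. P2ry12, an ADP receptor gene coupled to the Gi class, had 22 tags in KO alone. The nearest KO peak to that of Gpr65 was 9441 bp away and to that of Lpar6 3125 bp away. Ptger4, a prostaglandin E2 receptor gene, held 772 and 588 tags, at 0.00 (-0.16 to 0.16), Adora2b held 651 and 561, S1pr2 625 and 443, and Ptafr 528 and 379. The 22 paired receptor genes had a median of -0.02 with 10 above 0.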

How the data were processed

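H3K4me3 and H3K9me3 ChIP-seq peaks of wild-type and Sun-/- peritoneal macrophages were used, 1 library for each mark and genotype, grouped by their labels. The tools listed, without roles, are MACS 1.4.2, Bowtie 0.12.8, DiffBind and CASAVA 1.4, and the build is mm10 (per the submitters' processing notes). Peaks were called in each library with MACS 1.4.2 with no control, a p-value limit of 1e-05, at most 1 tag per position and a local background of up to 10000 bp, per the file headers. The deposited values are the tag count of each peak, its score, its fold enrichment (a ratio) and its width and summit in bp. Score and fold are the authors' own and were used to describe or filter peaks within a list. Libraries had 37378032, 31391199, 33007219 and 32859785 tags before filtering, H3K4me3 before H3K9me3 and WT before KO, per the file headers. These totals were 1 of the scalings.

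Analysis used scipy 1.17.1, matplotlib 3.10.9, pandas 2.3.3 and numpy 2.4.6 under Python 3.11.15. Peaks sharing 1 bp were counted as overlapping. Pairs overlapped one to one by 50% of the wider peak, with 50 or more tags in 1 library or both; ratios have exact conditional binomial intervals (Clopper-Pearson) and levels exact Poisson ones, which cover counting error only. Genes and gene starts came from RefSeq (GRCm38.p6), without exons, so no peak is placed in an exon or intron. The computation was tested on simulated data in which tags changed within unchanged peaks, so peak width, edges and calling were not tested. Named genes were the 7 genes, up to 4 with the most tags of each list, those marked in 1 genotype alone, and the 3 peaks most like those of Gna13 and of Gnai2. Some genes that this rule names are not reported here. The genes and lists were chosen with earlier results of these data known. Alternatives were other windows, scalings, tags per peak, 80% overlap, a score of at least 100 and other edge limits, the last added after the data were seen.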

Additional observations from a re-analysis of the deposited data

How the results depend on the processing

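No value here has a replicate behind it, so no alternative could leave out a library. The H3K9me3 peaks rest on 13 to 39 tags each. No paired analysis was possible because there was 1 library for each mark and genotype and no test. With a window of 2500 bp the count of genes with H3K4me3 in the knockout alone was 0, since the flanking peak then gave Gnai2 a peak in both genotypes. With peaks limited to scores of 100 or more, 0 genes had H3K9me3 in both genotypes, and the 2 in the knockout alone were Gna11 and Gnaq in place of Gna12 and Gna13. Scaled to filtered tags in place of centring, the density ratios of Gna11 and Gnaq turned to -0.14 and -0.10. With tags per peak those of Gna12, Gna13 and Gna15 turned to -0.021, 0.084 and 0.42, because the called widths differed. The median log2 ratio of summed tags, -0.34 over 6 genes, was 0.033 when centred on the median gene, where Gna11 was at 0.12, Gna13 at 0.21 and Gna12 at -0.71. With 80% reciprocal overlap Gna12, Gna13 and Gna15 had no pair. The median density ratio over these genes, -0.07, was 0.07 with tags per peak and 0.09 with 80% overlap, over 3 genes. The counts of marked genes with a window of 500 bp equalled the reported ones. The edge limits of 250 and 750 bp were set with both shifts known and show nothing on stability.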

Other observations

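H3K9me3 was also counted at the other genes of the pathway, against 16.9% of protein-coding genes marked in both genotypes, 8.73% in WT alone and 11.2% in KO alone. Of 21 effector genes 7 carried it in both, 5 in WT alone and 5 in KO alone. Of 26 regulators of alpha subunits, 8 carried it in both, 0 in WT alone and 2 in KO alone. Of 35 receptor genes 1 carried it in both, 2 in WT alone and 6 in KO alone. Of the 9 other alpha subunit genes 3 carried it in both, 2 in WT alone and 1 in KO alone. Gene length was not taken into account in these counts, and no test was run.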
